A study of Mus musculus with 8 samples.

Results

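The integrins and cell adhesion genes described here are a given list of 33 genes: 14 integrin alpha chains, 8 integrin beta chains, 3 integrin adaptors and 8 ligands or other surface adhesion proteins. They were followed in ATAC-seq peak lists of thymic group 2 innate lymphoid cells (ILC2s), and the regions assigned to them are those with a peak summit inside the gene body or within 20 kb of it. All 33 were found among 21883 protein-coding genes of the mm10 gene table, and 275 of the 51403 called regions near protein-coding genes fell to them. One region lay within 20 kb of both Itga1 and Itga2.

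ATAC-seq reads accessible DNA from the insertions of a transposase. The cells came from the thymus of C57BL/6 mice with the plck-Id1 transgene, named for the proximal Lck promoter that drives Id1 in developing T-lineage cells. Id1 binds E proteins, transcription factors that recognise the E-box sequence, and blocks them, and all groups carried this transgene. The cells were stimulated and expanded in cytokines, transduced with MIGR1 retrovirus carrying GFP, with or without E47-ER, sorted for GFP, and harvested after 4 or 16 hours of 4-hydroxytamoxifen. E47-ER joins the E protein E47 to an estrogen receptor part that tamoxifen switches on, and the GFP groups received the same tamoxifen. The 4 groups held 2 samples each, and each group came as a single deposited peak list covering its 2 samples. Without values per sample, neither a replicate spread nor a test of vector or time could be had, and each comparison describes these lists. List values are given throughout in the order E47-ER 4 h, E47-ER 16 h, GFP 4 h, GFP 16 h. In that order the lists held 49811, 40649, 42665 and 52846 regions. The free-text sample descriptions assign the empty vector to replicate 1 and E47-ER to replicate 2 in every group, against their titles and transduction entries, which were followed. Under the former reading each list would mix both vectors.

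Integrins are pairs of an alpha and a beta chain that span the membrane and hold a cell to matrix or to another cell. Lymphocytes keep them inactive until a signal from inside brings talin and kindlin to the beta chain tail, after which the pair binds its ligand firmly. ILC2s are mostly tissue-resident, and residence and entry into tissue both use such contacts. Open chromatin at a gene does not measure its expression or its protein.

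A region was called E47-only at a time when the E47-ER list held it and the GFP list of that time did not, and GFP-only when the GFP list alone of that time held it. Absence means no call, and weaker accessibility under the calling threshold cannot be told from none. Sequencing depth is unknown here, so list length could not be separated from depth. Of the ILC2 marker genes, all 11 had a region within 20 kb. Of their 130 regions, 66 were in all 4 lists, where 50.4% of all regions near genes were. Among markers of other cells, Cd8a and Cd8b1 of T cells, Ms4a1 of B cells, Lyz2 of myeloid cells, Fcer1a of mast cells, Ncr1 and Klra8 of NK cells, Tek and Tie1 of endothelium and Dcn of fibroblasts had none. Most markers of other cells did have regions within 20 kb, Cd3e, Cd4, Pax5 and Pf4 among them. These were 6 of 8 for T cells, 4 of 5 for B cells, 5 of 6 for myeloid cells and 4 of 5 for mast cells. For NK cells it was 3 of 5, for platelets 4 of 4, for endothelium 3 of 5 and for fibroblasts 3 of 4. The marker check by position alone thus did not separate cell types. Whether other cells contributed to the regions below was not tested.

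Promoters of the members were mostly called in every list. The RefSeq promoter table (GRCm38.p6, the assembly of mm10; 250 bases before to 50 bases after a start site) held 25 promoters of 22 members. Of these, 19 were overlapped by a region in all 4 lists, 5 by a region in none and 1 by a region in some lists. Over all 21262 protein-coding promoters of the table, 48.2% were overlapped in all lists. The promoters overlapped in none were that of Itga2b, the platelet integrin chain, both of Itgb6, an epithelial integrin chain, the second of Itga3, and the entry for Itga9, which lies inside the gene. At the outer end of Itga9, 109 bp from the gene body, a region was called in all lists.

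The promoter that differed between lists was that of Itga5, the alpha chain of the fibronectin receptor. Its sequence is given because it was called in E47-ER at 4 h with a fold enrichment of 5.47 and in GFP at 16 h with 6.78, the 2 longest lists, and in neither of the others. Fold enrichment is the authors' ratio of signal over local background, taken as the maximum over a region's peaks, and is comparable only within a list. Capitals mark matches to the E-box CANNTG, a pattern that is its own reverse complement. The window is chr15:103366742-103367041, minus strand, written 5′ to 3′.
Itga5: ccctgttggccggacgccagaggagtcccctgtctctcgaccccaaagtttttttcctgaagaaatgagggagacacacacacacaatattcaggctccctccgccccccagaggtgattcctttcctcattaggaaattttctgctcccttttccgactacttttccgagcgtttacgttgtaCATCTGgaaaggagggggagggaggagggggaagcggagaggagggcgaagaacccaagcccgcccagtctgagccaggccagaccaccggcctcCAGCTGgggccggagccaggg

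The next promoters are those of 4 members with leukocyte or lymphocyte roles and were all called in every list. Itga1 encodes the alpha chain of the collagen receptor VLA-1 (chr13:115101915-115102214, minus strand). Itga4 encodes the chain that pairs with beta 1 or beta 7 (chr2:79255176-79255475, plus strand). Itgax encodes CD11c (chr7:128129300-128129599, plus strand). Itgb7 encodes the beta chain of the gut-homing integrins (chr15:102231886-102232185, minus strand).
Itga1: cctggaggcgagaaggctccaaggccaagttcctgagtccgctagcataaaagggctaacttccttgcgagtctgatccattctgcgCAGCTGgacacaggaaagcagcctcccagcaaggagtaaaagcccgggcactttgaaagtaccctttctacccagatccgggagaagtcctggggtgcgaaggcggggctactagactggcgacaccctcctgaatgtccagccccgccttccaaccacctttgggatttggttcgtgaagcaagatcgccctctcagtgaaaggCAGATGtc
Itga4: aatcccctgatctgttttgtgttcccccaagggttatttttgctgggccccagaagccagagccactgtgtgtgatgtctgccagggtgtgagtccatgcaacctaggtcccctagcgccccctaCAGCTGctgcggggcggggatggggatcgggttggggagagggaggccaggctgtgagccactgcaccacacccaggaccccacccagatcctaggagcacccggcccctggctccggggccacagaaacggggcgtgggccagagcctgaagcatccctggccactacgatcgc
Itgax: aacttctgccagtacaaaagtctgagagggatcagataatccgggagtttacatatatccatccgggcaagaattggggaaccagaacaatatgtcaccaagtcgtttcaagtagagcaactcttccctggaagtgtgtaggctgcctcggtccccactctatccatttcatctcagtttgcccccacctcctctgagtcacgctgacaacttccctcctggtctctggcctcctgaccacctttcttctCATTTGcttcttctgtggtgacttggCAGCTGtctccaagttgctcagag
Itgb7: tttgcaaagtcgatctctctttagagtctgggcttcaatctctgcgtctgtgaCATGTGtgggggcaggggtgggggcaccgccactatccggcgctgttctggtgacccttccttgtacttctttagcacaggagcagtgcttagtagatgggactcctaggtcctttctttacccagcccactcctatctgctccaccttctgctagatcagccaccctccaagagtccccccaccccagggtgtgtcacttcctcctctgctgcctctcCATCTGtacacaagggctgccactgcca

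The E-box of form CAGCTG, a preferred site of E47, stood in the Itga1, Itga4, Itga5 and Itgax windows and not in that of Itgb7. The promoters of Cd44, Cd47, Cd48, Icam1, Fermt3 and Tln1, also called in every list, held none. The printed windows were chosen after they were seen and hold this form more often than the 25 member promoters do. In Itga4 its first base lay 125 bases before the start site, and in Itgax 26 bases after it. In all, 18 of the 25 member promoters held a CANNTG match, against 69.0% of the 21262 promoters. CAGCTG was found in 7 member promoters and 15.6% of all, and CAGGTG, searched with its reverse complement CACCTG, in 7 and 19.7%. Every CAGCTG and CAGGTG match is also a CANNTG match. A match describes the letters and is not evidence of binding.

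The members carried many regions. Their number over the 4 lists together ran from 1 (Itga8 and Itgb6) to 19 (Itga2), with a median of 8, where the median of the 16737 protein-coding genes with a region was 4. Itga2, a collagen receptor chain, held 16, 10, 14 and 16 regions in the 4 lists. Itgb2, the beta chain of LFA-1 and Mac-1, held 12, 8, 9 and 12. Selplg, the P-selectin ligand PSGL-1, held 14, 12, 9 and 12. Of the 275 regions, 150 also lay within 20 kb of a protein-coding gene that is no member. At the edge of the window, the farthest regions inside had their nearest summit at 19967 bp (Itga7) and 19907 bp (Itga9), and the nearest ones outside at 20039 bp (Fermt3) and 20097 bp (Itga5).

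**Figure D1:**
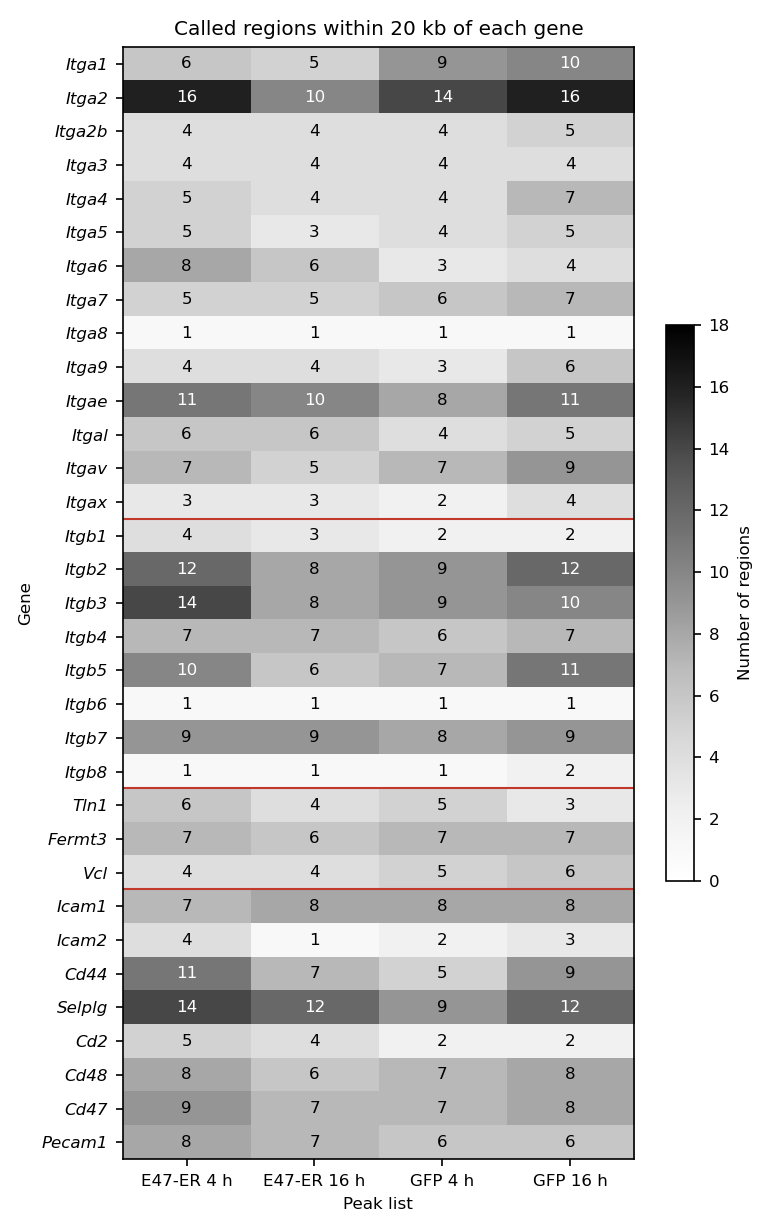
Number of called regions within 20 kb of each gene (rows, ordered by role, with lines between roles) in each of the 4 peak lists (columns), and darker cells hold more regions. Itga6 falls from 8 regions in E47-ER at 4 h to 3 in GFP at 4 h, while Itga1 has 6 and 9.

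Which regions set the vectors apart was asked at each time. At 4 h, 67 of the 226 member regions of the E47-ER list were E47-only (29.6%, exact 95% interval 23.8 to 36.1), where the background over all protein-coding genes was 24.3%. In the GFP list of that time, 20 of 179 were GFP-only (11.2%, 6.96 to 16.7; background 11.6%). At 16 h the order turned, with 21 of 179 E47-only (11.7%, 7.41 to 17.4; background 11.3%) and 61 of 219 GFP-only (27.9%, 22.0 to 34.3; background 30.9%). All 4 shares had the background inside their interval. The longer list of each time gave the larger share.

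Regions held apart at both times were few. Of the 275 regions, 13 were E47-only at both times (4.73%, 2.54 to 7.95) and 12 were GFP-only at both times (4.36%, 2.27 to 7.5), with backgrounds of 3.33% and 4.18%. These lay at 10 and 9 of the 33 members. Of all genes with a region 12.9% and 15.7% had one, and at the rate of other genes with as many regions 7.17 and 8.47 members would. Of these regions, 4 of the 13 and 6 of the 12 were also near a gene that is no member. A further 136 regions (49.5%) were in all 4 lists, against 50.4% of all regions near genes. Set beside other genes with as many regions, the members held 67 E47-only regions at 4 h where the means of those genes add up to 51.9, and 20 GFP-only regions where they add up to 20.2. At 16 h the counts were 21 against 18.6 and 62 against 67.7, with the region shared by Itga1 and Itga2 counted for each. At both times they were 13 against 8.64 and 12 against 10.7.

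The shares of the 4 h and 16 h lists were compared again with every list shortened by −log10 p to 40649 regions. Then 42 of 183 member regions were E47-only at 4 h (23.0%, 17.1 to 29.7) against 15.2% over all genes, and 42 of 179 at 16 h (23.5%, 17.5 to 30.4) against 18.1%. GFP-only shares were 16.1% against 14.5% at 4 h and 15.4% against 18.4% at 16 h. The 4 h E47-only interval lay above the share over all genes in these shortened lists and included it in the full ones. The intervals cover counting error over regions only, and regions of the same gene or list are not replicates.

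**Figure D2:**
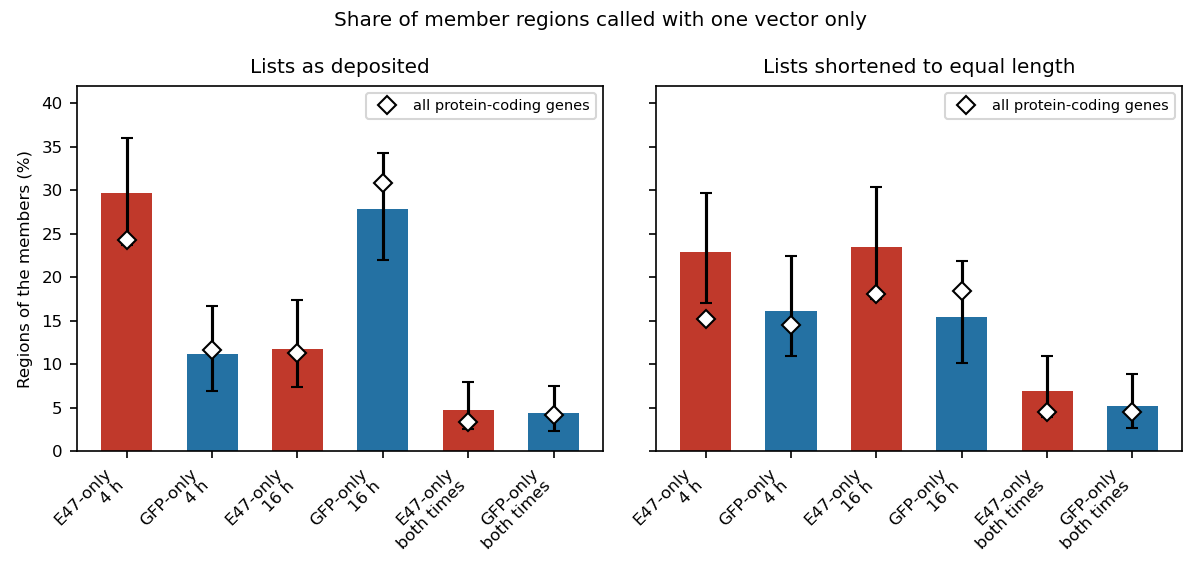
Bars show the percent of the members' regions called with a single vector (red E47-ER, blue GFP) at 4 h, at 16 h and at both times, with exact 95% intervals, in the lists as deposited (left) and shortened to equal length (right), and diamonds give the same share over all protein-coding genes. At full length all diamonds lie inside the intervals, while at equal length the E47-only diamond at 4 h, 15.2%, lies below its interval of 17.1 to 29.7.

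Members with regions of a single direction were a minority. Itga6, Itgal, Itgb1, Itgb4, Tln1 and Cd2 had an E47-only region at 4 h or 16 h and no GFP-only region at either time, which makes 6 of 33 members, beside a background of 15.9% of genes with a region. Itga1, Itgb8, Fermt3 and Icam1 had the reverse, 4 of 33 beside a background of 21.9%. Both kinds were found at 21 members (63.6%, against 43.3% of genes with a region), and neither kind at Itga8 and Itgb6. In lists of equal length the first kind held 10 members (21.8% of genes), with Itgae, Itgax, Itgb6 and Fermt3 added, and the second held Itga1, Itgb8 and Icam1 (20% of genes). Fermt3 thus changed direction with list length. Having both kinds goes with having many regions, and the members have more than most genes.

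**Figure D3:**
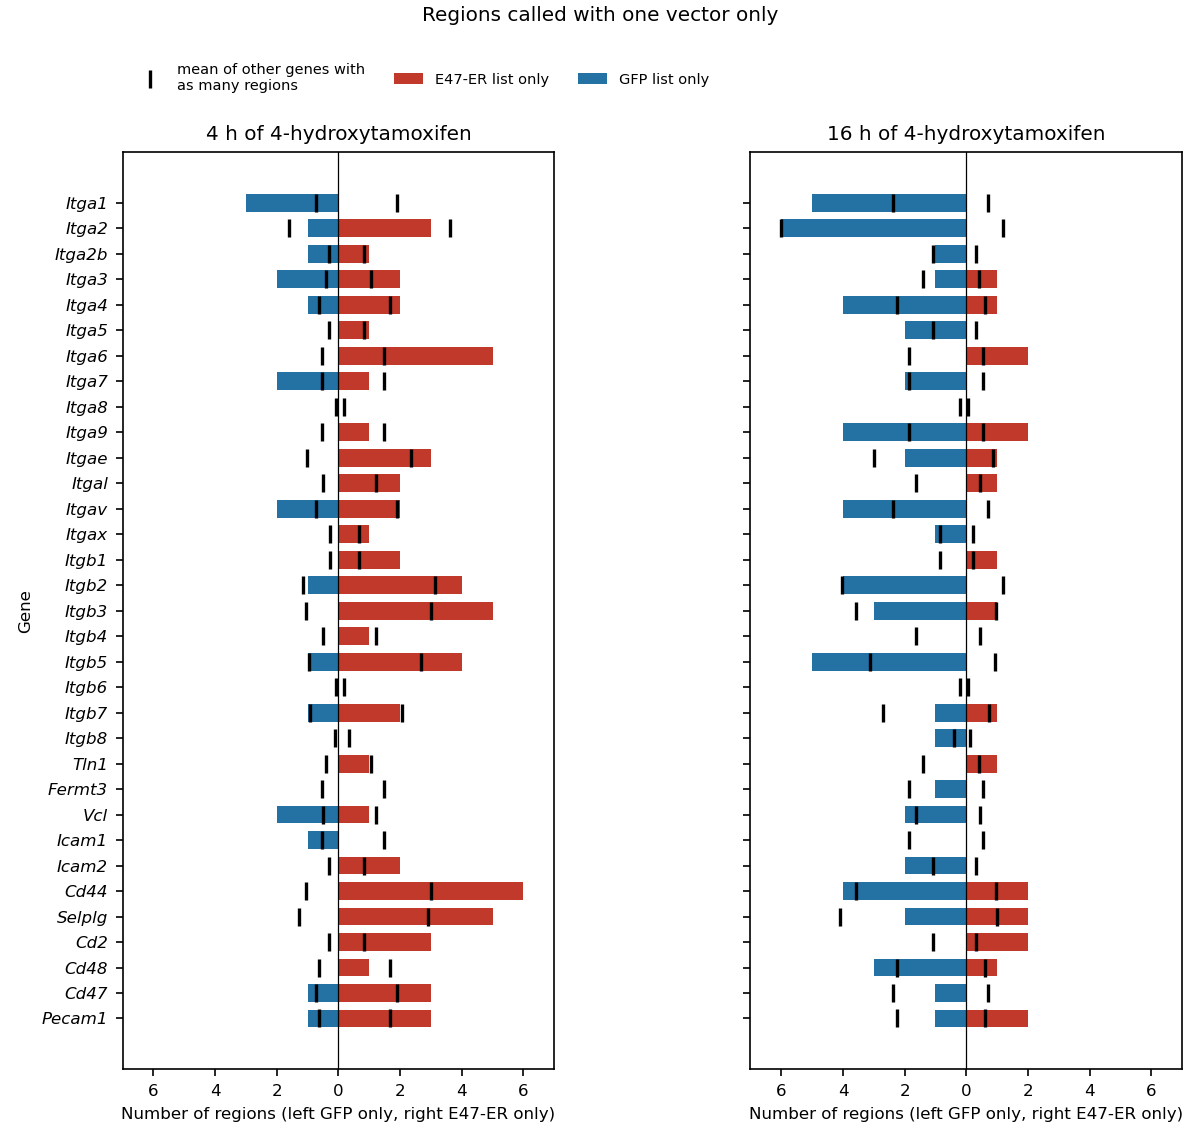
Bars give the number of regions of each gene called with E47-ER only (right, red) or GFP only (left, blue) at 4 h and 16 h, and black ticks the mean number in other protein-coding genes with as many regions. At 4 h, Itga6 with 5, Cd44 with 6 and Cd2 with 3 E47-only regions exceed their ticks, and Itga1 with 3 GFP-only regions does so on the left.

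Among the alpha chains, 24 of 85 regions of the E47-ER list were E47-only at 4 h (28.2%, 19.0 to 39.0) and 12 of 73 GFP-only (16.4%, 8.79 to 27.0), where all genes had 24.3% and 11.6%. At 16 h, 8 of 70 were E47-only (11.4%) and 31 of 93 GFP-only (33.3%), beside 11.3% and 30.9% of all genes. At both times, 6 of their 111 regions were E47-only (5.41%, 2.01 to 11.4) and 9 GFP-only (8.11%, 3.77 to 14.8). The backgrounds of 3.33% and 4.18% lay inside these intervals. In lists of equal length 8 regions of this role were E47-only at both times and 9 GFP-only. Over all genes 4.50% and 4.57% of regions were so in those lists. Itga6, the laminin receptor chain CD49f (chromosome 2, 71786886 to 71858427), had the most uneven counts, with 8, 6, 3 and 4 regions. It had 5 E47-only regions at 4 h, a count that 7 of the 853 other genes with 8 regions reached. Such counts were compared for 198 values over the members. Of these, 8 values were reached by 5% or fewer of the other genes with as many regions. They came from 4 genes, Itga6, Cd2, Itga1 and Pecam1. How often other genes give such values was not computed, so these 4 genes were not shown to stand out. A value could qualify only where the member had such a region. A region counted at both times is also counted at each single time, so the 8 values are not independent. Itga6 had 2 regions that were E47-only at both times. These lay inside the gene (71800837 to 71801135, folds 8.90 and 6.48) and 8370 bp beyond it (71866507 to 71867051, folds 9.75 and 9.80). The latter is also near Pdk1. The 3 regions of Itga6 in all lists had higher folds. The region at the end of the gene body had 13.4, 12.1, 11.2 and 14.4, an inner region had 18.3, 19.3, 17.7 and 21.8, and a region 14859 bp beyond the gene had 21.6, 21.8, 22.5 and 21.5. The main open sites of Itga6 were thus present with either vector, and each of its E47-only regions had a lower fold than these 3 in the same list. In lists of equal length Itga6 had 4 E47-only regions at 4 h and 3 at both times. One more region than in the full lists thus counted at both times, since its weak call in GFP at 16 h (71812814 to 71812996, percentile 17.8) is lost when that list is shortened.

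Itga1, which encodes CD49a, a residency-linked integrin chain of lymphocytes, went the other way (chromosome 13, 114958079 to 115101964). It held 6, 5, 9 and 10 regions, none of them E47-only at either time. Its 3 regions that were GFP-only at both times had folds of 6.18 and 11.7 inside the gene (115006173 to 115006453, in GFP at 4 h and 16 h), 7.74 and 8.73 at 7430 bp upstream, and 9.37 and 9.65 at 18628 bp upstream. Of the 438 other genes with 10 regions, 6 had as many GFP-only at both times. The promoter shown above had folds of 9.26, 8.61, 9.13 and 10.8. The neighbouring gene Pelo lies within the Itga1 body, and 6 of the regions were within 20 kb of both. In lists of equal length the 3 GFP-only regions were still found.

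Itga4 held 5, 4, 4 and 7 regions and had 1 of each kind at both times. The E47-only region lay 6950 bp upstream (79248352 to 79248874, folds 6.76 and 6.47), and the GFP-only one inside the gene (79267181 to 79267400, folds 7.26 and 7.25). A region 19140 bp upstream was in all lists with folds of 9.71, 11.2, 15.3 and 17.8. The promoter of Itga4 had folds of 10.3, 10.9, 11.2 and 11.7.

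**Figure D4:**
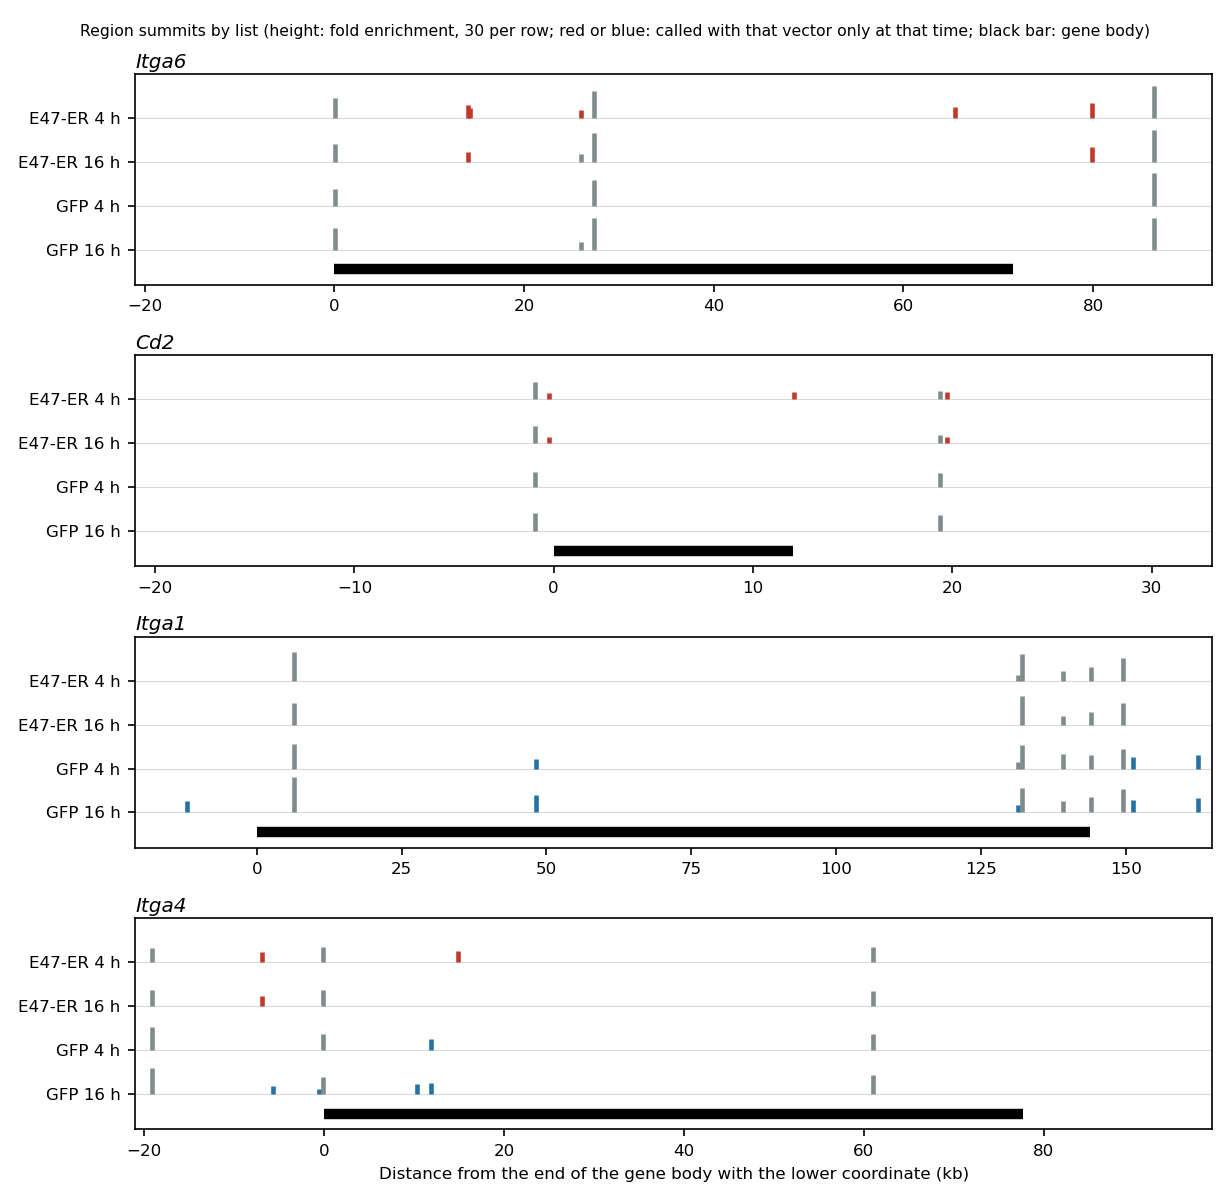
Summits of the regions of Itga6, Cd2, Itga1 and Itga4 in each list, by distance in kb from the end of the gene body with the lower coordinate. The summit shown is the strongest over the lists, line height is the fold enrichment in that list, colour marks regions called with that vector only at that time, grey marks the rest, and the black bar is the gene body. Itga6 shows red lines in the E47-ER rows and no blue ones, and Itga1 shows 3 blue positions in both GFP rows.

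Other alpha chains with regions held apart at both times were spread over both directions. Itgav, the vitronectin receptor chain, had 2 GFP-only regions, the stronger inside the gene with folds of 8.14 and 9.29. Itga9 had an E47-only region inside the gene (folds 6.74 and 8.13), and Itgae, the alpha chain CD103 that binds E-cadherin, a weak one (folds 4.02 and 3.90). Itga3 had 1 of each, with folds of 7.95 and 5.77 for the E47-only and 6.53 and 8.93 for the GFP-only region. Itga2b and Itga7 had 1 GFP-only region each, both near other genes, with folds of 4.02 and 4.21 for Itga2b and 6.51 and 6.44 for Itga7. Itga2, Itga5, Itga8, Itgal and Itgax had none at both times.

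Itgal, the alpha chain of LFA-1, had a region at an end of the gene body in all lists with folds of 11, 10.2, 6.40 and 9.47. A region 8198 bp downstream of Itgax, near Itgad (chromosome 7, 128158708 to 128159241), was called in all lists, with folds of 21.3 and 19.5 in E47-ER and 8.06 and 12.8 in GFP. Its −log10 p stood at percentile 79.3, 74.5, 26.1 and 52.6 of the regions of each list. Both E47-ER folds lay above both GFP folds, as at 38 of the 136 member regions in all lists (27.9%; 21.9% over all genes), and the reverse held at 21 (15.4%; 17.5% over all genes). A region inside Itgb3 (104667273 to 104668028) had folds of 12.0, 10.7, 6.20 and 7.31, and 1 inside Cd44 had 14.0, 13.4, 9.07 and 9.56. A region inside Vcl went the other way with 8.41, 7.92, 14.8 and 18.7. Folds belong to each list, and no such difference could be tested.

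The beta chains had 18 of 58 regions E47-only at 4 h (31.0%, 19.5 to 44.5) and 3 of 43 GFP-only (6.98%, 1.46 to 19.1). At 16 h the order turned, with 3 of 43 E47-only (6.98%) and 14 of 54 GFP-only (25.9%). The shares over all genes, 24.3% and 11.6% at 4 h and 11.3% and 30.9% at 16 h, lay inside all 4 intervals. None of the 67 beta chain regions was E47-only at both times. A count of 0 of 67 allows a share of up to 4.48%, which includes the background of 3.33%. In lists of equal length 5 beta chain regions were E47-only at both times, at Itgb1, Itgb2, Itgb4, Itgb5 and Itgb7. The absence thus held only at full length. In the lists of equal length the share over all genes was 4.50%. Itgb3, the vitronectin receptor beta chain, had 14, 8, 9 and 10 regions with 5 E47-only at 4 h, against a mean of 3.01 in the 100 other genes with 14 regions, and 1 in lists of equal length. Itgb2 had 4 E47-only regions at 4 h against a mean of 3.14. Itgb2 was also the single beta chain with a GFP-only region at both times, 1148 bp from the gene and near Pttg1ip (folds 6.12 and 8.29).

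Itgb1, the beta chain shared by the most integrins, had its promoter region in all lists with folds of 19.5, 22.1, 19.1 and 18.9. These were the highest folds near a beta chain in the first 3 lists, while in GFP at 16 h a region 12462 bp from Itgb7, near Csad and Zfp740, reached 19.1. Itgb7, the partner of Itga4 and Itgae, had 9, 9, 8 and 9 regions, 7 of its 11 in all lists, and its promoter had folds of 8.33, 7.87, 7.34 and 7.79. Itgb4, Itgb5, Itgb6 and Itgb8 had no region held apart at both times. The single region of Itgb6 lay inside the gene and was in all lists with folds of 9.87, 13.3, 7.31 and 7.23.

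Among the adaptors, Tln1 encodes talin, which activates integrins at the beta chain tail, Fermt3 encodes kindlin-3, its partner in blood cells, and Vcl encodes vinculin, which ties talin to actin. At 4 h, 2 of their 17 E47-ER regions were E47-only and 2 of their 17 GFP regions GFP-only. Both shares were 11.8% (1.46 to 36.4), where all genes had 24.3% and 11.6%. At 16 h, 1 of 14 was E47-only (7.14%, 0.181 to 33.9) and 3 of 16 GFP-only (18.8%, 4.05 to 45.6). All genes had 11.3% and 30.9% at that time. Vcl had the highest fold, at its promoter, with 22.2, 21.5, 21.4 and 21.5, and 1 region 12135 bp upstream that was GFP-only at both times (folds 6.56 and 8.90). The Tln1 promoter had 11.8, 11.5, 11.2 and 11. Fermt3 had 7, 6, 7 and 7 regions, and 6 of its 8 were in all lists.

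Among the ligands and other surface proteins, 23 of 66 E47-ER regions were E47-only at 4 h (34.8%, 23.5 to 47.6; all genes 24.3%), and 3 of 46 GFP regions GFP-only (6.52%; all genes 11.6%). At 16 h the order turned, with 9 of 52 E47-only (17.3%) and 13 of 56 GFP-only (23.2%), and the shares over all genes were 11.3% and 30.9%. At both times 7 of 76 regions were E47-only (9.21%, 3.78 to 18.1) and 1 GFP-only, where the background was 3.33% and 4.18%. The interval of the 9.21% began just above the background, over 8 genes that were grouped with earlier results known. In lists of equal length 3 regions of this role were E47-only at both times and 1 was GFP-only. Over all genes 4.50% and 4.57% of regions were so in those lists.

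Cd2, an adhesion and costimulatory receptor of T, NK and innate lymphoid cells (chromosome 3, 101275908 to 101287939), had 5, 4, 2 and 2 regions. Its 2 regions in both GFP lists were in all lists, at 922 bp beyond an end of the gene (folds 11.5, 11.6, 10.3 and 12.1) and 7354 bp beyond the other (5.69, 5.60, 9.85 and 10.9). Beside each lay a weaker region, E47-only at 4 h and 16 h alike. These were 101275589 to 101275834, with folds of 3.89 and 4.07, and 101295599 to 101295786, with 5.14 and 4.16. Of the 1903 other genes with 5 regions, 18 had as many. By −log10 p they stood at percentiles 17.2 and 13.9, and 17.7 and 2.82, of the E47-ER lists at 4 h and 16 h. In lists of equal length Cd2 had none at 4 h and so none at both times.

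Pecam1, the adhesion protein CD31, had 2 E47-only regions at both times and 1 GFP-only region (folds 4.45 and 4.59). The E47-only regions had folds of 6.41 and 6.45 inside the gene and 5.99 and 5.40 at 5689 bp beyond it. In lists of equal length Pecam1 had 1 E47-only region at both times and no GFP-only one. Cd48, a ligand of CD2 in mice, had an E47-only region 8199 bp upstream and also near Slamf7 (folds 8.28 and 9.04). Cd44, the hyaluronan receptor, held 11, 7, 5 and 9 regions, of which 6 were E47-only at 4 h, a count that 6 of the 100 other genes with 14 regions reached, and 3 in lists of equal length. Its single region E47-only at both 4 h and 16 h lay inside the gene with folds of 4.85 and 6.84. By −log10 p that region stood at percentiles 0.903 and 12.7 of the E47-ER lists. In lists of equal length Cd44 had no region E47-only at both times. Selplg had 5 E47-only regions at 4 h, a count that 9 of the 76 other genes with 16 regions reached. It had 1 at both times, 215 bp beyond an end of the gene (folds 3.61 and 4.86). Of those other genes, 34.2% held a region E47-only at both times. In lists of equal length the Selplg counts were 4 and 1.

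Icam1, the main LFA-1 ligand, had 7 of its 8 regions in all lists and no E47-only region, and the region at its promoter had folds of 11.2, 9.43, 11.8 and 11.9. Icam2, a second LFA-1 ligand, had 4, 1, 2 and 3 regions. Cd47, the ligand of SIRP alpha, had 9, 7, 7 and 8 regions, 5 of its 10 in all lists.

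Fold enrichment did not place the members high among genes. The highest fold of a member had a median of 16.2, 15.0, 14.2 and 14.6 in the 4 lists, against 17.7, 17.2, 16.8 and 17.4 over all genes with a region. It exceeded the median of other genes with as many regions at 11, 11, 11 and 10 of the 33 members. For the 8 ligands and surface proteins this was so at 1, 0, 1 and 0 genes, and their highest folds in E47-ER at 4 h ran from 9.79 for Selplg to 18.8 for Cd44. Itga7 had the highest fold of all members in E47-ER at 4 h and in GFP at 16 h, with 25.8, 20.1, 21.5 and 24.7 over the lists, in a region 10272 bp from the gene and near Cd63, Bloc1s1 and Rdh5. In E47-ER at 16 h the highest was Itgb1 with 22.1, and in GFP at 4 h Itga6 with 22.5.

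**Figure D5:**
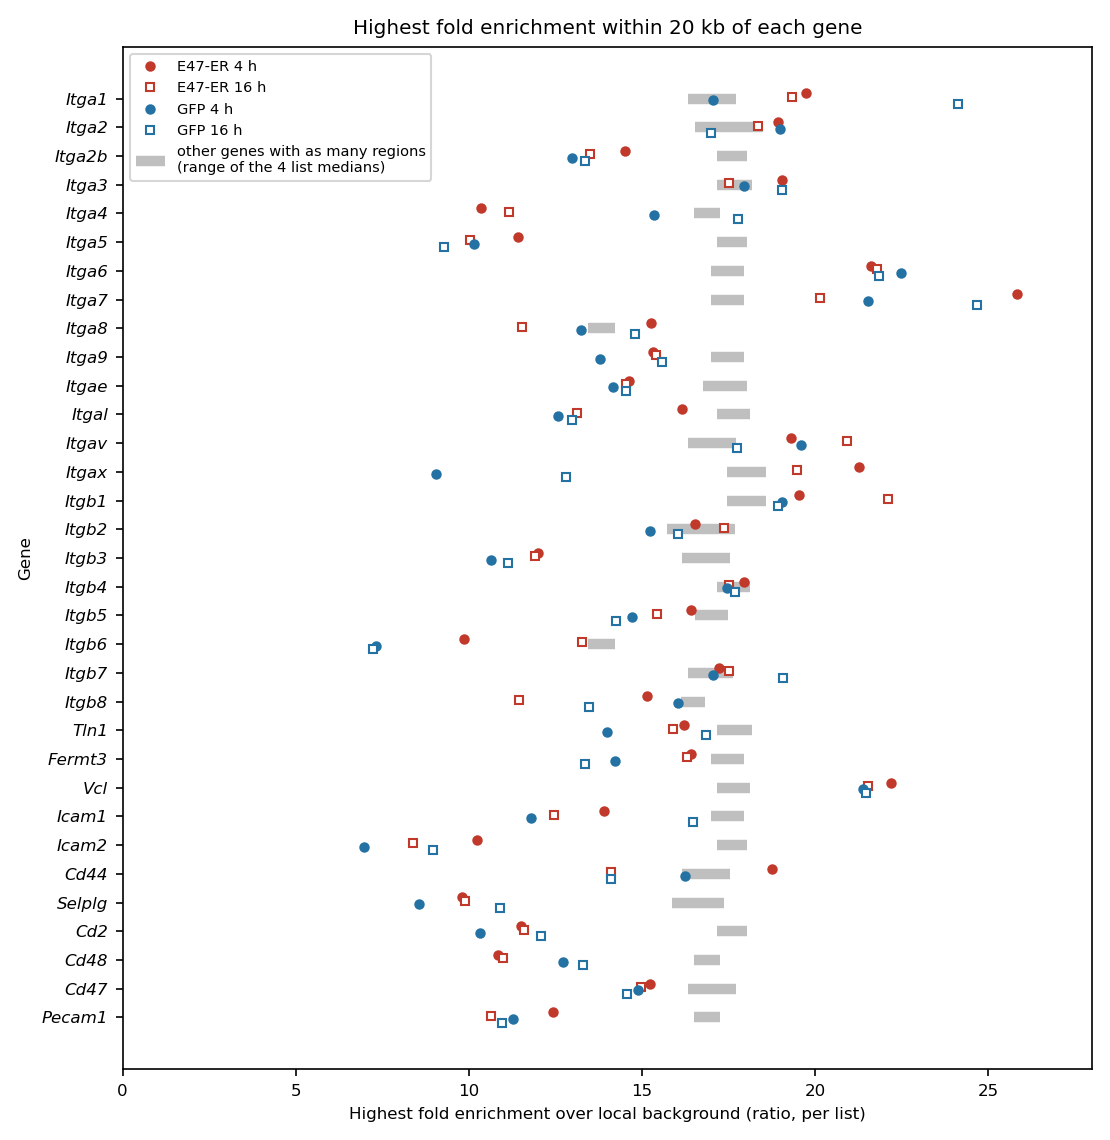
Highest fold enrichment within 20 kb of each gene in each list (red E47-ER, blue GFP, filled 4 h, open 16 h), with grey bars for the range of the 4 list medians of other genes with as many regions. Most members lie left of their grey bar, Itga6, Itga7, Itgav, Itgb1 and Vcl lie right of it in all lists, and Itgax has both E47-ER points right of both GFP points.

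What the regions called with a single vector shared was low strength. In the E47-ER list at 4 h the median percentile of −log10 p was 18.7 for the members' 67 E47-only regions and 61.9 for their 159 shared ones, and 17.4 and 65.1 over all genes. In GFP at 16 h it was 19.5 for 61 GFP-only and 58.2 for 158 shared regions, and 21.4 and 68.0 over all genes. Above the median of their list stood 1 of the 67 E47-only regions at 4 h, none of the 20 GFP-only at 4 h, 1 of the 21 E47-only at 16 h and 5 of the 61 GFP-only at 16 h. Over all genes it was 482 of 9849, 67 of 4015, 169 of 3722 and 1401 of 13053 in the same order. Low strength of such regions was thus a trait of the whole lists. Their positions differed too. Summits no more than 1 kb from either end of some protein-coding gene were seen for 25 of 131 member regions called with a single vector at a time (19.1%, 12.7 to 26.9) and for 55 of 136 in all lists (40.4%, 32.1 to 49.2). Over all genes these shares were 14.6% and 42.1%.

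Other genes of adhesion were listed separately: further integrin alpha chains, inside-out signalling and focal adhesion genes, other ligands, selectins, the SLAM family and tetraspanins. Of these 56 genes, 54 had a region, 37 held regions E47-only at 4 h and 22 held regions GFP-only, and 22 and 37 did so at 16 h. Of all genes with a region, 53.6% and 27.9% did so at 4 h and 25.6% and 60.5% at 16 h. E47-only regions made up 25.5% of their E47-ER regions at 4 h and 13.7% at 16 h, and GFP-only regions 12.3% and 31.5% of their GFP regions, each with the background inside its interval. At both times 16 of their 363 regions were E47-only (4.41%, 2.54 to 7.06) and 17 GFP-only (4.68%, 2.75 to 7.39). The backgrounds of 3.33% and 4.18% lay inside these intervals. Of all genes with a region, 12.9% held a region E47-only at both times and 15.7% one GFP-only. The 15 genes with a region E47-only at both times were Itga11, Itgam, Rap1a, Fyb, Ilk, Pxn, Zyx, Parva, Cyth1, Rasgrp2, Fn1, Slamf1, Slamf7, Cd244a and Cd82. The 12 genes GFP-only at both times were Itgam, Rap1a, Ptk2, Ptk2b, Parvb, Rasgrp2, Stk4, Jam2, Cdh1, Sirpa, Cd84 and Cd81. Ptk2, the focal adhesion kinase gene, had 12 regions, of which 4 were GFP-only at both times and none E47-only at both times. At 4 h, 1 was E47-only. Of the 227 genes outside the members with 12 regions, 41.9% held at least 1 region GFP-only at both times. How many of them held 4, and the Ptk2 count in lists of equal length, were not computed. Vcam1, a ligand of Itga4 integrins, and Fermt2 had no region in any list, while the ligand gene Madcam1 had 5 over the lists together.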

How the data were processed

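ATAC-seq was carried out on 8 samples in 4 groups of 2. The submitters' processing notes list mm10 with the tools cutadapt, Bowtie2, MACS2 and DiffBind, without versions. The authors deposited 1 peak list for each group, whose name marks it as the conservative IDR set. Each deposited line gives a score (capped at 1000, at least 540), a ratio (fold enrichment over the local background) and a −log10 p (at least 2.00). The score was not used. The deposited ratio and −log10 p were used only to describe and rank peaks within a list. Depth per library is unknown.

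Overlapping lines within a list were joined into regions, and regions of the 4 lists sharing 1 bp or more were linked to 60835 union regions, on which presence in each list was scored. A union region counted for a gene when a summit lay within 20 kb of its body (RefSeq GRCm38.p6). The self-test recovered all simulated classes. Its regions were set far apart and always overlapped between lists, so it checks the code and not how close regions are linked. The members, roles and lists were chosen with earlier results of these data known. All members are accounted for, and named by rule are those with a region of 1 vector only at both times and those with the highest fold in a role. The promoters printed, the mapped loci and the values of other named genes (such as Itgal, Itgax, Itgb3, Itgb7, Icam1, Icam2, Cd47 and Ptk2) were chosen after they were seen. Intervals are exact (Clopper-Pearson) at 95%, and the limit for a count of 0 uses 3 counts. No test was run, since each group had 1 list. Software was matplotlib 3.10.9, scipy 1.17.1, numpy 2.4.6 and pandas 2.3.3 under Python 3.11.15.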

Additional observations from a re-analysis of the deposited data

How the results depend on the processing

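No paired analysis was possible because each group was deposited as a single list that carries no replicate, and for the same reason no replicate could be left out. The 6 shares of member regions were recomputed under gene body alone, 5 kb and 50 kb, lists of equal length, an overlap of 50%, regions above the median, direct comparison of 2 lists, single summits within 150 bp, and the nearest gene only, which gave 50 values, 41 of them inside the interval of the value reported. With lists of equal length, the E47-only share was 23.0% at 4 h and 23.5% at 16 h. The GFP-only shares were 16.1% and 15.4%, so that E47-only exceeded GFP-only at each time. All genes had E47-only shares of 15.2% and 18.1% and GFP-only shares of 14.5% and 18.4% in these lists. Keeping only regions past their list's median −log10 p, the E47-only shares were 1.04% at 4 h, 1.18% at 16 h and 0% at both times, and the GFP-only shares 0%, 4.81% and 0%. The same shares over all genes were not computed, though regions called with a single vector were also weak over all genes. The counts of 0 allow up to 3.53% for GFP-only at 4 h and 4.35% at both times for either vector. Single summits and direct comparison were run for single times alone. List length differed between groups, depth is unknown, and their part in the counts cannot be told apart.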
